A study of Mus musculus with 6 samples.

Results

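Long noncoding RNAs are transcripts without a recognised protein product that are long enough to be captured like messenger RNA. In the deposited table many such genes carry the biotype lincRNA, mostly for those that stand apart from coding genes, or antisense, mostly for those that lie across a gene of the other strand. Others carry further biotypes, such as processed_transcript (for example Rian, Gas5 and Dleu2), and are not covered here even where abundant. The genes described here were chosen by level. They are those of either biotype with a mean level of at least 5 CPM (counts scaled to a library total of 1000000) over 6 libraries of mouse dorsal skin, chromosomes X and Y excluded. Of 7899 autosomal genes with these biotypes, 5296 had a count in at least 1 library and 201 met the rule, 147 as lincRNA and 54 as antisense RNA. The rule used the mean level and not the difference between genotypes, so the levels below are a description and the genotypes could be compared.

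The skin came from 3 mice of the tight skin strain (TSK) and 3 wild-type littermates (WT), 1 library per mouse, shaved before sampling, labelled C57BL/6, 6 to 8 weeks old and female, without treatment in either group. The labels' sex goes against the study's methods, which give males, and against the Y-linked gene Ddx3y, at 56.7 to 72.8 CPM in all 6 libraries. TSK mice carry, on 1 allele, a germline duplication inside Fbn1, the gene of the microfibril protein fibrillin 1, in every cell and not in a chosen cell type, and WT littermates lack it. Whole skin was taken, so each library mixes epidermis, dermis, fat and the underlying muscle. Fbn1 stood at 262 to 289 CPM in WT and at 1538 to 2284 CPM in TSK. Library totals were 17561453 to 19219814 counts, so that 5 CPM corresponded to 87.8 to 96.1 counts. Epidermal Krt14 (498 to 1340 CPM) and dermal Col1a1 (2511 CPM or more) were present in all libraries, and so was Ttn of muscle (74542 CPM or more). The fibroblast markers were higher in TSK (summed level 6365 to 9667 CPM in WT and 20451 to 47442 CPM in TSK), with 7 of 7 log2 fold changes above 0 and 1 of 7 past the test. Markers of developing muscle were lower, 6 of 6 tested past the test (101 to 245 against 21.1 to 29.8 CPM). The adult muscle markers were lower on average, with WT 1 next to TSK 1 (163222 to 236963 against 141213 to 161437 CPM, 0 of 12 past the test). Summed levels were also higher in TSK for hair follicle markers (3 of 5 tested past the test, median log2 fold change 2.58) and endothelial markers (1 of 6, 0.83). The same held for macrophage markers (0 of 7, 0.98) and mast cell markers (0 of 5, 1.09). Adipocyte markers had 9 of 10 log2 fold changes above 0 (3 past the test, median 2.45). Their sums overlapped (2910 to 3469 against 3036 to 6361 CPM), with TSK 2 the highest. Car3 was the largest part of that sum (2507 to 2972 against 2217 to 2967 CPM). Apart from Car3 and Plin4, each adipocyte marker had all TSK libraries above all WT libraries. Melanocyte markers were higher as well (5.47 to 7.79 against 10.7 to 17.5 CPM, 0 past the test). The summed level of smooth muscle markers was lower in TSK (1851 to 2226 against 1402 to 1552 CPM) while 4 of 5 log2 fold changes lay above 0, 1 of them past the test (Myh11). Most of that sum was Des (1752 to 2137 against 1209 to 1365 CPM), which skeletal muscle also makes. In bulk tissue, a change in the number of cells of a type and a change in RNA per cell cannot be told apart.

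Long noncoding RNAs work in several ways. Some, such as Malat1 and Neat1, stay in the nucleus and take part in nuclear bodies. Others, such as Kcnq1ot1 and Airn, silence neighbouring genes on the chromosome they are made from, and are expressed from 1 parental copy only. Still others are the precursors from which microRNAs or small nucleolar RNAs are cut, and the rest of the transcript may have no known function.

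Among the 201 RNAs, 13 held the annotated precursor of at least 1 microRNA (37 precursors in all), and several of the values below concern them, so the microRNAs are shown first. Mature sequences were found in the RefSeq table (GRCm38.p6) for 35 of the 37 precursors. Capitals mark the seed, bases 2 to 8, which pairs with the target. Dnm3os, transcribed against Dnm3, holds the precursors of the mesenchymal microRNAs miR-199a and miR-214. Gm28653 holds those of miR-206 and miR-133b, which act in skeletal muscle. Mirg is the host of a large imprinted group, of which miR-134 and miR-410 are given. Meg3 holds miR-770 and H19 holds miR-675. The let-7 trio of 6720427I07Rik shares 1 seed, as do miR-17-5p and miR-20a-5p of Mir17hg.
mmu-miR-199a-5p: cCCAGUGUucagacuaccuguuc
mmu-miR-199a-3p: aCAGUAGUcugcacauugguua
mmu-miR-214-3p: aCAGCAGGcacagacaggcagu
mmu-miR-206-3p: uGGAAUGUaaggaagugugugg
mmu-miR-133b-3p: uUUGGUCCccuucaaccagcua
mmu-miR-134-5p: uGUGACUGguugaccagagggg
mmu-miR-410-3p: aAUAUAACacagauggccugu
mmu-miR-770-5p: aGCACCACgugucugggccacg
mmu-miR-675-5p: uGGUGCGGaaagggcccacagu
mmu-let-7a-5p: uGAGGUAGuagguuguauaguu
mmu-let-7d-5p: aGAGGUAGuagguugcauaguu
mmu-let-7f-5p: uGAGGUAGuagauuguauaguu
mmu-miR-17-5p: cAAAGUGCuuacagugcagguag
mmu-miR-20a-5p: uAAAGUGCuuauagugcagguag
The microRNAs themselves were not analysed here, and the values below are those of the long host transcripts.

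The 201 RNAs were spread over all 19 autosomes, and most were near the threshold. Their median level was 8.48 CPM. Mean levels were 5 to 10 CPM for 113 RNAs, 10 to 50 CPM for 76, 50 to 100 CPM for 3 and above 100 CPM for 9. Just inside the threshold were Gm48306 (5.004 CPM) and Mir17hg (5.022 CPM), and just outside it were Gm11033 (4.98 CPM) and B830012L14Rik (4.906 CPM). Together the 201 RNAs took 1.77% to 2.56% of a library's counts. Malat1, H19 and Neat1 made up 75.2% to 81.3% of that share in each library.

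**Figure D1:**
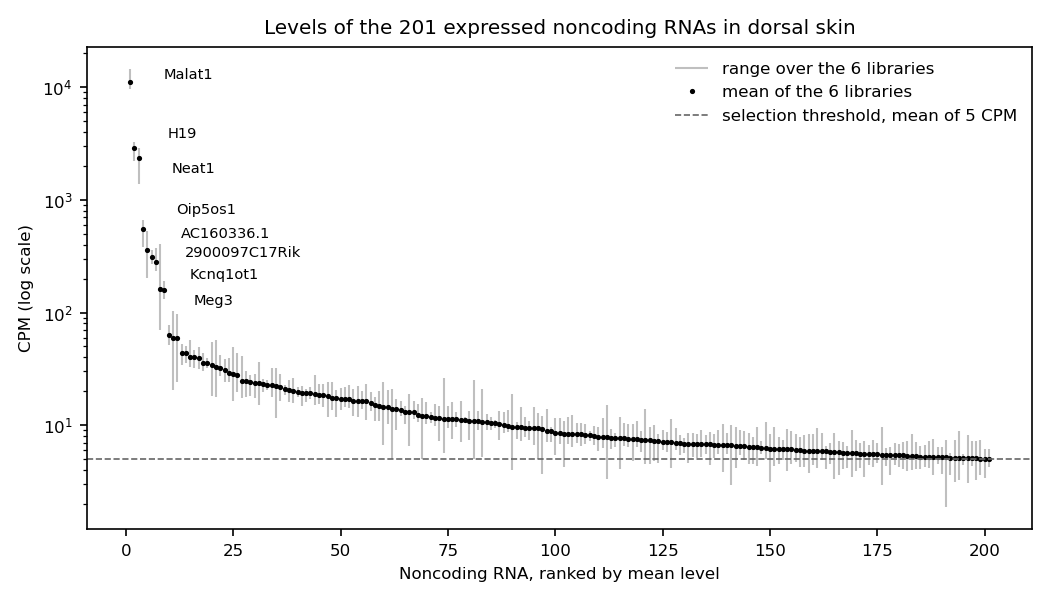
Mean level in CPM (log axis) of each of the 201 noncoding RNAs, ranked, with the range over the 6 libraries as a grey line and the threshold of 5 CPM as a dashed line. Malat1, H19 and Neat1 stand above 1000 CPM and 113 RNAs lie between 5 and 10 CPM.

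Malat1, an RNA of nuclear speckles, was the most abundant of the 201. The 3 WT libraries held 11799, 10866 and 10292 CPM of it and the 3 TSK libraries 10286, 9728 and 14561 CPM, values here and below being in the order of mouse number. The groups overlapped, with TSK 3 the highest of the 6. Per kilobase of exon, Malat1 (1612 CPM per kb) was ahead of H19 (1166 CPM per kb), and Neat1 followed at 113 CPM per kb.

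H19, an imprinted RNA of fetal tissues that persists in adult muscle, stood at 2942, 2829 and 3264 CPM in WT and 2832, 2222 and 3128 CPM in TSK. These deposited levels overlapped, while after TMM scaling, which limits the weight of a few abundant genes, the TSK libraries (1997 to 2777 CPM) lay below the WT libraries (2874 to 3688 CPM). Neat1, on which paraspeckles are built, was nearly constant in WT at 2608, 2645 and 2644 CPM. In TSK it was 1895, 1391 and 2918 CPM, so that TSK 1 and TSK 2 were below all WT libraries and TSK 3 above them. After TMM scaling WT spread over 2548, 3219 and 2988 CPM, and TSK 3 at 2590 CPM lay among them. The log2 fold changes (TSK minus WT, after TMM scaling) were -0.21 ± 0.31 (standard error) for Malat1 (0.07 with library totals alone), -0.43 ± 0.24 for H19 and -0.64 ± 0.29 for Neat1. None of these passed the test, with adjusted p of 0.755, 0.37 and 0.273 in edgeR's quasi-likelihood test. Of 7 paraspeckle proteins, 0 passed it, and their median log2 fold change was -0.02.

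The next RNAs in level were Oip5os1 (also called Cyrano, which binds the microRNA miR-7), AC160336.1, 2900097C17Rik (Norad, which binds Pumilio proteins), Kcnq1ot1, Meg3, Gm47578 and Gm4117. This order is by CPM, which is not scaled by length. Gm4117 was at 1.2, Kcnq1ot1 at 2.99 and AC160336.1 at 3.85 CPM per kb of exon, against 94.2 for Gm12840. Oip5os1 ranged from 402 to 651 CPM in WT and from 378 to 661 CPM in TSK. Norad was at 296 to 324 CPM in WT and 268 to 356 CPM in TSK. Neither pair of ranges was separate, and the log2 fold changes of -0.38 ± 0.31 and -0.26 ± 0.18 (0.03 for Norad with library totals alone) did not pass the test (adjusted p 0.543 and 0.482, edgeR). AC160336.1 was at 204 to 321 CPM in WT and 392 to 530 CPM in TSK, apart, with a log2 fold change of 0.47 ± 0.17 and an adjusted p of 0.182 (edgeR).

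Most of these RNAs are built like messenger RNA. Of the 201, 200 were placed on the GENCODE annotation of GRCm38. Their exons spanned 302 to 93147 bases with a median of 3294, and 37 had a single exon block. Another annotated gene overlapped 94 of them, on either strand, and 106 overlapped none. A coding gene lay across 55 on the opposite strand, sharing exon bases with 36. A further arrangement, in which a noncoding and a coding gene start within 1000 bases of each other and point apart, held for 30.

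Reads of 50 bases can fit more than 1 gene, so each RNA was compared with the transcripts of all genes elsewhere in the genome. The median share of its 50-base windows found in another gene was 1.67%. It was under 5% for 137 of 200 RNAs and over 25% for 32, and 46 shared no window. Levels of those with a high share are uncertain, since deposited counts that are not whole can divide reads among genes. Among the abundant RNAs this concerns Gm47578 (84.8%) and Norad (39.5%, all with Gm7292).

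Between the genotypes, 5 of the 201 RNAs passed an adjusted p below 0.05, 2.49% against 3.39% of all 19971 genes tested and 4.54% of those tested with a mean of at least 5 CPM. Miat and Gm12840 were higher in TSK (2 RNAs, where 2.71% of all genes tested were called higher). Gm13490, 1110046J04Rik and Gm15564 were lower (3 RNAs, where 0.681% of all genes tested were called lower). At the study's thresholds, more than 2.5-fold with adjusted p under 0.01, edgeR called 0 of the 201 and 0.29% of all genes. At an unadjusted p below 0.05 it called 41 of the 201, a share close to the 20.0% of all genes. Of these, 11 were higher and 30 lower, but the split over all genes was not taken at this threshold, and the side of 0 depends on the scaling. DESeq2 called 6 higher and 5 lower at an adjusted p below 0.05 (7.48% of all genes it adjusted), the 5 edgeR calls among them, and 3 at the study's thresholds (1.82%), namely Meg3, Gm15564 and Miat.

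As a group the noncoding RNAs had a median slightly below that of all genes, under TMM scaling as with library totals alone. The median log2 fold change was -0.13 over the 201 RNAs and -0.03 over all genes tested. A value below 0 was found for 143 RNAs and above 0 for 58. The quartiles were -0.36 and 0.02, against -0.24 and 0.25 for all genes. With library totals alone the medians were 0.15 and 0.25, so the side of 0 rests on the scaling. lincRNAs and antisense RNAs had medians of -0.13 and -0.14. The SD of the library medians within a group was 0.108, about the size of the median itself. Changes beyond 1 log2 unit were seen for 9 RNAs, 4.48% of them, and for 6.11% of all genes. After TMM scaling, WT and TSK libraries were separate for 11 RNAs with TSK above and 29 with TSK below, 19.9% of the 201 and 24.7% of all genes (14.1% with TSK above and 10.6% with TSK below). At the deposited levels the balance was the opposite, with TSK above for 30 RNAs and below for 5, against 29.1% and 2.58% of all genes.

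**Figure D2:**
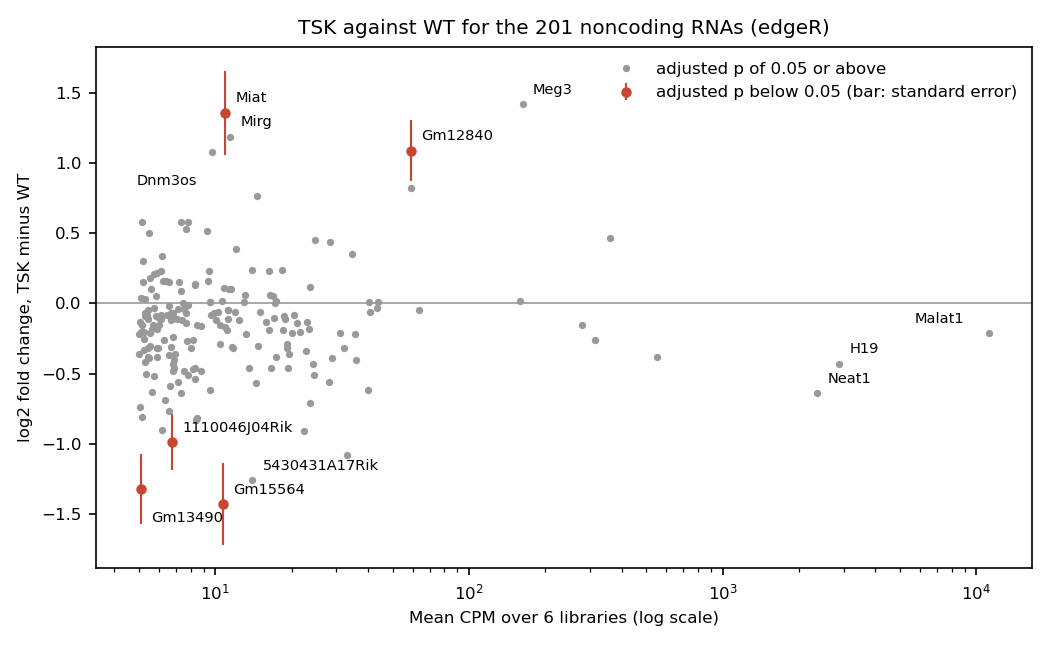
Log2 fold change, TSK minus WT, against mean CPM (log axis) for each of the 201 noncoding RNAs, with the 5 past the adjusted p of 0.05 in red with their standard errors. Most points lie between -0.5 and 0.25, the 3 most abundant RNAs lie below 0 (Malat1 above 0 with library totals alone), and Miat, Mirg, Dnm3os, Meg3 and Gm12840 lie above 1.

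The promoters of 3 called RNAs and of Meg3 (the first of its 2 RefSeq starts) are shown because the genotype comparison turns on these genes, as 250 bases before the RefSeq start followed in capitals by the first 50 transcribed bases. A RefSeq promoter (GRCm38.p6) was found for 98 of the 201 RNAs. By the GENCODE coordinates given below, the windows of Miat and 1110046J04Rik lie wholly inside the annotated gene, which starts further upstream there.
Miat, chr5:112228899-112229198, minus strand: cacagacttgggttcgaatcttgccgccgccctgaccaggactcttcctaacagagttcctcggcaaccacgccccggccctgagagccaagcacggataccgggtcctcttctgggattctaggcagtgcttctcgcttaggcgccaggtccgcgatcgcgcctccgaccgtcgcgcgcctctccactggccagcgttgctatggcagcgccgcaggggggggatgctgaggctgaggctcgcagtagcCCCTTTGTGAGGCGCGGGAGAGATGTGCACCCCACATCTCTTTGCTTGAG
Meg3, chr12:109540746-109541045, plus strand: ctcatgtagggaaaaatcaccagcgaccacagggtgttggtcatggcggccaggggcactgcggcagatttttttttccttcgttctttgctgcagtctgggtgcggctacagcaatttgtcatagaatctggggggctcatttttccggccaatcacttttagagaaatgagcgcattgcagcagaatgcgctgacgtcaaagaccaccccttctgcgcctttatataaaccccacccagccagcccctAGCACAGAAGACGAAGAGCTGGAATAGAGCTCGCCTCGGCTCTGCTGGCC
Gm13490, chr2:51731960-51732259, minus strand: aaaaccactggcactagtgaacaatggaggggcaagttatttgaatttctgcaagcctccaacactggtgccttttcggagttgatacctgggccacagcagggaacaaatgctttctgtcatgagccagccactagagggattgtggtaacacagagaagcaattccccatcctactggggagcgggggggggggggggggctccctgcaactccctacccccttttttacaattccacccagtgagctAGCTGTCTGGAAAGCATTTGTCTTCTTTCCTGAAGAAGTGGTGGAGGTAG
1110046J04Rik, chr13:33935782-33936081, plus strand: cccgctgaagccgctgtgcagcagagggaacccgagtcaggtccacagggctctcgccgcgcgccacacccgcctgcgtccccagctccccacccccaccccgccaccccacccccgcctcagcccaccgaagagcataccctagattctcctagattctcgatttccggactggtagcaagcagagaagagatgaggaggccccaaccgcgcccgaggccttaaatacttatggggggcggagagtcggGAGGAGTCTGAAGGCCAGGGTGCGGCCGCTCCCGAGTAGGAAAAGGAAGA
Letters were searched on both strands, the windows of all genes serving as the background. TATAAA occurred in 15.3% of the 98 promoters and 14.2% of 27025 promoters in all, CCAAT in 43.9% and 37.9%, GGGCGG in 36.7% and 35.9%, and CANNTG, which can overlap CCAAT, in 75.5% and 72.1%. Meg3 held TATAAA and CCAAT, Miat and 1110046J04Rik held GGGCGG, and Gm13490 held CANNTG at 2 positions. These are matches of letters and not binding sites.

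Miat (chr5:112213228-112229395, minus strand, 6 exon blocks), an RNA of nuclear domains described in neurons, retina and heart, rose in TSK. It was at 5.68, 4.97 and 5.2 CPM in WT and at 14.8, 9.94 and 25 CPM in TSK. The 3 TSK libraries were all above the WT libraries, and TSK 3 was the highest. The log2 fold change was 1.36 ± 0.3 with an adjusted p of 0.0497 (edgeR), and 0.97 to 1.63 when any 1 library was left out. The adjusted p was then 0.0181 without TSK 2 and above 0.05 without any other library, up to 0.166. No window of Miat was shared with another gene.

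Gm12840 (chr4:117700188-117700923, plus strand), a lincRNA of 2 exon blocks without a described function, rose as well. Its level was 39.2, 20.4 and 39.9 CPM in WT and 73.5, 77 and 104 CPM in TSK. The groups were apart, with WT 2 the lowest. The log2 fold change was 1.09 ± 0.22 and the adjusted p 0.0373 (edgeR). With 1 library left out it was 0.90 to 1.29, past the threshold only without WT 1 (adjusted p 0.0456, otherwise up to 0.0959). Gm20186 (chr6:18845910-18848207, minus strand) followed nearly the same order of libraries, at 45.2, 24.3 and 44 CPM in WT and 73.4, 69.9 and 96.9 CPM in TSK, with a log2 fold change of 0.82 ± 0.21 that did not pass the test (adjusted p 0.0693, edgeR). These 2 loci are near copies. Of 463 aligned bases 97% were identical, and 45.8% of the windows of Gm12840 and 25.4% of those of Gm20186 occur in the other. The same 265 windows of Gm12840 are also found in Gm26809, a gene annotated over the Gm20186 locus. Among stretches of 100 bases aligned without a gap inside 1 exon of both genes, the one with most differences is printed with those differences in capitals.
Gm12840, chr4:117700596-117700695, plus strand: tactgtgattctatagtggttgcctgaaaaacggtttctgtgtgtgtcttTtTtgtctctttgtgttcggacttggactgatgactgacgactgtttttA
Gm20186, chr6:18846226-18846325, minus strand: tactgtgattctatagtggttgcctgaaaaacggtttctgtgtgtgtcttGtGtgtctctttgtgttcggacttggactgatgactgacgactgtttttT
Only 3 of these 100 bases differ, so reads from here cannot always be assigned to 1 locus, and which locus rose was not tested. Lsm8, the coding gene that starts 372 bases from Gm20186 and points away, had a log2 fold change of -0.06 ± 0.17.

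Gm15564 (chr16:35966752-35983230, minus strand), an antisense RNA across Parp9, fell in TSK. The libraries stood at 21.1, 13.5 and 10.2 CPM in WT and 9.14, 5.25 and 5.34 CPM in TSK. TSK 1 was near WT 3, but the groups did not overlap. The log2 fold change was -1.43 ± 0.29 with an adjusted p of 0.0375 (edgeR). Leaving out 1 library gave -1.77 to -1.19, past the threshold only without TSK 1 (0.0204, otherwise up to 0.105). Parp9 itself was at 15.3 CPM on average in WT and 17.1 CPM in TSK, with a log2 fold change of -0.09 ± 0.15. A stretch of 72 bases of Gm15564, which crosses an annotated splice junction, equals a stretch of Lars2, a mitochondrial leucyl-tRNA synthetase gene, at 71 bases. The base that differs is in capitals. Of the 816 windows of Gm15564 only 3 (0.368%) match Lars2 in full.
Gm15564, within chr16:35981725-35983052, minus strand: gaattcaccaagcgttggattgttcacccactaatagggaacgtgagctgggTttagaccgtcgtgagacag
As background, this stretch is known from the large ribosomal RNA. Lars2 was at 14459, 10421 and 8633 CPM in WT and 7445, 4164 and 5842 CPM in TSK, a level far above that of Gm15564 and in the same order of libraries. The ribosomal RNA gene CT010467.1 was at 60936 to 78150 CPM in WT and 26718 to 54592 CPM in TSK, again in that order. Neither passed the test (log2 fold change -1.20 ± 0.34 and adjusted p 0.0978 for Lars2, -0.96 ± 0.49 and 0.322 for CT010467.1, edgeR). The part of residual ribosomal RNA in the fall of Gm15564 was not tested.

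**Figure D3:**
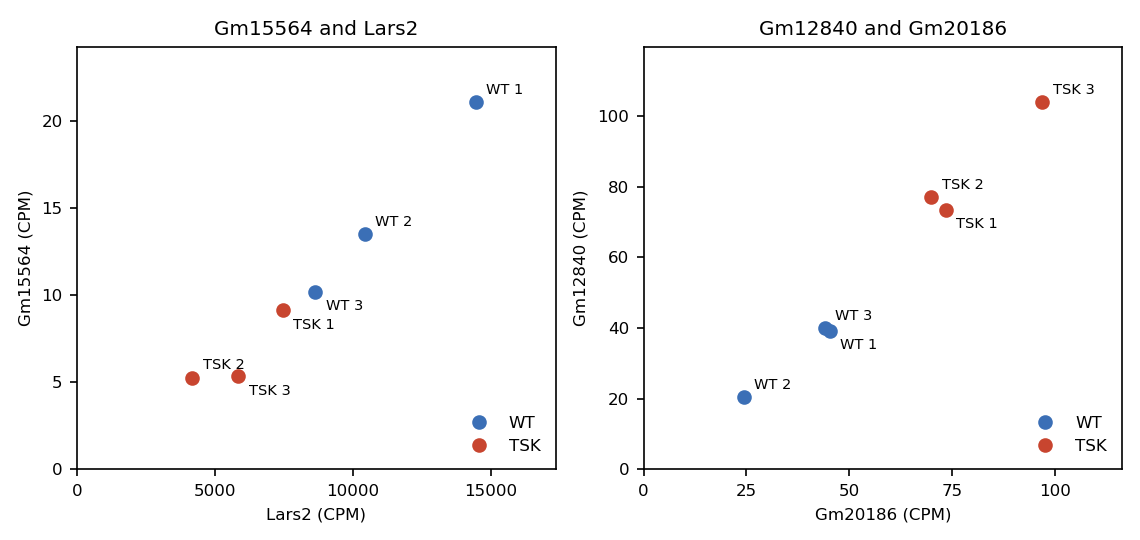
Level in each library (CPM) of Gm15564 against Lars2 and of Gm12840 against Gm20186, pairs of genes with shared sequence, WT in blue and TSK in red. In both panels the libraries lie close to a rising line, and Gm15564 and Lars2 have WT 1 as their highest library.

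1110046J04Rik (chr13:33935567-33960181, plus strand), an antisense RNA across the serine protease inhibitor gene Serpinb6a, fell in TSK together with that gene. It was at 8.03, 8.41 and 8.67 CPM in WT and 4.68, 4.4 and 6.37 CPM in TSK, without overlap and with little spread in WT. The log2 fold change was -0.99 ± 0.2 with an adjusted p of 0.0349 (edgeR). It passed without TSK 3 or WT 1 and not without any of the other 4 libraries (-1.15 to -0.89, adjusted p up to 0.142). Serpinb6a fell from a mean of 392 CPM to 199 CPM (log2 fold change -1.26 ± 0.21, adjusted p 0.02, edgeR). Of the exon bases of 1110046J04Rik, 16.7% lie in exons of the opposite strand. Libraries were prepared with strand marking, but the strand setting of the counting is not given in the sources used here. Where at least 80% of an antisense gene lay inside exons of an abundant coding gene, its level per kilobase was at most 1.34% of that gene's, over 15 such pairs. Whether reads of Serpinb6a entered the counts of 1110046J04Rik was not tested.

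Gm13490 (chr2:51656966-51732009, minus strand, 7 exon blocks), a lincRNA without a described function, fell from 5.87, 8.25 and 6.36 CPM to 3.87, 3.09 and 3.2 CPM. All TSK libraries were below all WT libraries. Its log2 fold change was -1.32 ± 0.25 and its adjusted p 0.0299 (edgeR), the lowest among the 201. It passed without TSK 1 or WT 1 and not without any of the other 4 libraries (-1.46 to -1.07, adjusted p up to 0.105). It is 1 of 8 RNAs whose TSK mean was below 5 CPM, and its mean over 6 libraries of 5.107 CPM is close to the threshold.

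**Figure D4:**
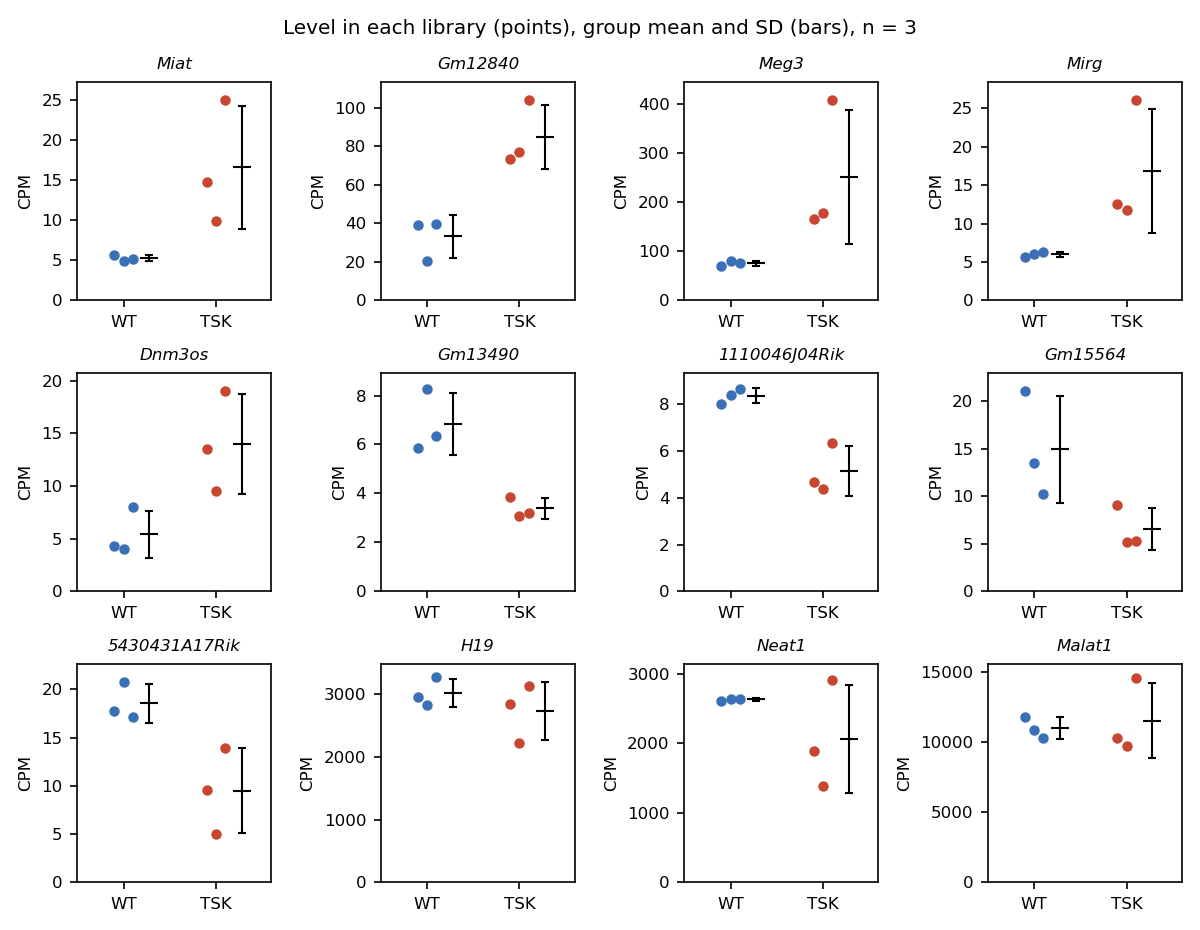
CPM in each library (points, WT in blue and TSK in red) with the mean and SD of each group (bars, n = 3) for 12 noncoding RNAs, each panel starting at 0. Miat, Gm12840, Meg3, Mirg and Dnm3os have all TSK points above WT, Gm13490, 1110046J04Rik, Gm15564 and 5430431A17Rik have them below, and H19, Neat1 and Malat1 overlap at these deposited levels.

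Meg3, Rian and Mirg are maternally expressed RNAs that follow each other on 1 strand of the imprinted Dlk1-Dio3 region of chromosome 12, and all were higher in TSK, Rian past the test. Meg3 was at 69.6, 80.6 and 76.4 CPM in WT and at 165, 178 and 407 CPM in TSK, the last being TSK 3. Mirg was at 5.71, 6.02 and 6.33 CPM in WT and 12.6, 11.7 and 26.1 CPM in TSK. Rian, which has another biotype and so is not among the 201, was at 26.6, 27.4 and 28.7 CPM in WT and 56.4, 62.1 and 85.6 CPM in TSK. The groups were apart for each of these RNAs, and TSK 3 was highest each time.

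The log2 fold change was 1.42 ± 0.33 for Meg3 (adjusted p 0.0579), 1.19 ± 0.3 for Mirg (0.0717) and 1.01 ± 0.17 for Rian (0.0215), by edgeR. Without TSK 3 that of Meg3 was 0.91 and that of Mirg 0.75. With 1 library left out, Meg3 passed only without TSK 1 (adjusted p 0.0483), and Mirg passed in 0 of 6 such fits (0.0537 to 0.196). DESeq2 put both Meg3 (adjusted p 0.000216) and Mirg (0.00428) past 0.05. Dlk1, the paternally expressed coding gene beside Meg3 in the region, named after its values were seen, was at 1.94 to 2.93 CPM in WT and 2.17 to 2.39 CPM in TSK. TSK 3 also had the highest summed level of fibroblast markers (47442 CPM), of macrophage markers (814 CPM, against 160 to 244 CPM in WT and 280 and 396 CPM in the other TSK libraries) and of Schwann cell markers (371 CPM, against 108 to 219 CPM in WT). The part of these signals in the levels of Meg3, Mirg, Miat and Dnm3os was not tested.

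The other imprinted RNAs did not pass the test. Of 8 tested from the imprinted list 1 was called, Rian, where 3.39% of all genes tested were called. The median log2 fold change of the list was 0.38. Kcnq1ot1, which silences genes around Kcnq1, was at 235 to 315 CPM in WT and 248 to 372 CPM in TSK (log2 fold change -0.15 ± 0.18, or 0.13 with library totals alone). Airn, antisense to Igf2r, was at 6.78 to 7.5 CPM in WT and 7.58 to 11.7 CPM in TSK (0.14 ± 0.18), and Igf2r had a log2 fold change of -0.32 ± 0.18. H19 is described above. Igf2, its paternally expressed neighbour, named after its values were seen, had a log2 fold change of -0.55 ± 0.19 and an adjusted p of 0.148 (edgeR).

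On a separate list of 18 described microRNA hosts, 6 of them among the 201, 0 of 15 tested passed the test and the median log2 fold change was -0.17. Dnm3os was at 4.27, 3.99 and 7.97 CPM in WT and 13.5, 9.52 and 19 CPM in TSK, apart as deposited, while after TMM scaling WT 3 lay above TSK 2. The log2 fold change was 1.08 ± 0.34 with an adjusted p of 0.118 in edgeR and 0.0287 in DESeq2. Dnm3, the gene on the opposite strand, had 0.12 ± 0.14. Gm28653, which holds miR-206 and miR-133b and is not on that list, was at 10.2, 11 and 8.73 CPM in WT and 5.37, 4.23 and 11 CPM in TSK, where TSK 3 reached the highest WT library as deposited. After TMM scaling TSK 3 (9.74 CPM) lay just below the lowest WT library (9.88 CPM). Its log2 fold change was -0.83 ± 0.33 with an adjusted p of 0.202 (edgeR), and without TSK 3 it was -1.32 and 0.0422. Mir205hg, host of the epithelial miR-205, Mir17hg and Carmn, described beside the smooth muscle microRNAs miR-143 and miR-145 but without a precursor in the annotation used, had log2 fold changes of -0.34 ± 0.19, -0.36 ± 0.26 and 0.58 ± 0.32, and all overlapped between the groups.

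Myhas, an antisense RNA between the fast myosin genes, was at 19.8, 32 and 29.4 CPM in WT and 24, 17.5 and 11.5 CPM in TSK. WT 1 and TSK 1 were close together, and the log2 fold change of -0.91 ± 0.32 did not pass the test (adjusted p 0.162, edgeR). Myh4, which starts 456 bases away and points the other way, had -1.09 ± 0.41, and Myh1, which Myhas overlaps, 0.09 ± 0.38. The adult muscle sum given above was lowest in TSK 3 and highest in WT 2, as Myhas was, and its part was not tested.

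Of the small nucleolar RNA hosts, Snhg12 (4.6 to 7.68 CPM in WT, 8 to 8.32 CPM in TSK) and Snhg20 (3.47 to 5.85 and 5.77 to 7.17 CPM) were among the 201, with log2 fold changes of 0.15 ± 0.17 and 0.18 ± 0.2. Over the 17 tested hosts of that list, which lie mostly outside the rule by biotype or level, 0 passed and the median was 0.04. Pvt1, at the Myc locus, Lncpint, a p53 target, and Lockd, downstream of the cell cycle inhibitor gene Cdkn1b, had log2 fold changes of 0.00, -0.06 and -0.10, with standard errors of 0.2 each. Of the proteins that degrade or build noncoding RNA, 0 of 14 of the nuclear exosome and its NEXT adaptor, 0 of 10 of nonsense-mediated decay and 0 of 8 of the small nucleolar particle passed, with medians of -0.10, -0.14 and -0.18. The 10 tested RNAs beside developmental genes had 0 called and a median of -0.16, and the 2 tested immune RNAs a median of -0.23, and none of them met the rule.

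The remaining RNAs with large changes and separate groups did not pass the test in edgeR. 5430431A17Rik, downstream of Josd2 on chromosome 7, went from 17.7, 20.8 and 17.1 CPM in WT to 9.6, 5.05 and 13.9 CPM in TSK (log2 fold change -1.26 ± 0.32, adjusted p 0.0742). 5730419F03Rik on chromosome 1 had -0.90 ± 0.26, and DESeq2 called both, but this RNA met the rule through WT alone (7.48 CPM in WT and 4.86 CPM in TSK). Gm11373 (-0.71 ± 0.23) and Gm46516 (-0.69 ± 0.24) were separate only after TMM scaling. On the higher side were Gm29562 (0.77 ± 0.24), Gm48832 (0.58 ± 0.25) and Slmapos2 (0.52 ± 0.25), of which Gm48832 met the rule through TSK alone (3.66 CPM in WT and 6.6 CPM in TSK) and Gm29562 shares 78.1% of its windows with other genes, mainly Gm48161.

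Noncoding RNAs were then set beside the coding genes next to them. Pairs whose coding gene was tested were used, and those that both overlap and point apart were counted as overlapping. For 19 pairs that start within 1000 bases and point apart, the log2 fold changes had the same sign in 15 pairs and a Pearson r of 0.597 across pairs. Most values on both sides of these pairs lay below 0, which makes a shared sign frequent. The coding genes that fell most were Myh4 (-1.09), Eno3 (-0.84) and Cacng6 (-0.71), beside Myhas (-0.91), Gm12319 (-0.48) and 3300002P13Rik (-0.74). The value of r without these pairs was not tested. For 45 pairs that overlap on opposite strands the same sign was seen in 26 and r was 0.218. Where the noncoding RNA begins within 5000 bases downstream of a coding gene on the same strand (13 pairs), it was 10 and 0.0872. These are descriptions across genes measured in the same 6 libraries.

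Of the overlapping coding genes, 3 passed the test, 6.67% against 3.39% of all genes. Serpinb6a and Acsl6 (log2 fold change -1.29 ± 0.19, adjusted p 0.0148) were lower in TSK and Kcnq1 was higher (1.40 ± 0.31, 0.0491, edgeR). Their antisense partners 1110046J04Rik, Gm12224 and Kcnq1ot1 had -0.99 ± 0.2, -0.81 ± 0.34 and -0.15 ± 0.18, so that only 1110046J04Rik passed. Kcnq1, a potassium channel gene, was at 0.74 to 1.1 CPM in WT and 2.25 to 3.82 CPM in TSK. Kcnq1ot1 had far more CPM, but over an annotated exon of 93092 bases (2.99 CPM per kb), and CPM is not scaled by length. The gap between partners was largest for Gm47904 and Akr1c14 (2.52 log2 units), Gm26691 and Cxxc4 (2.27) and Kcnq1ot1 and Kcnq1 (1.55). In each of these pairs the coding gene had the higher mean in TSK, below 6 CPM, past the test for Akr1c14 (adjusted p 0.0342) and Kcnq1 but not for Cxxc4 (0.0718, edgeR).

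**Figure D5:**
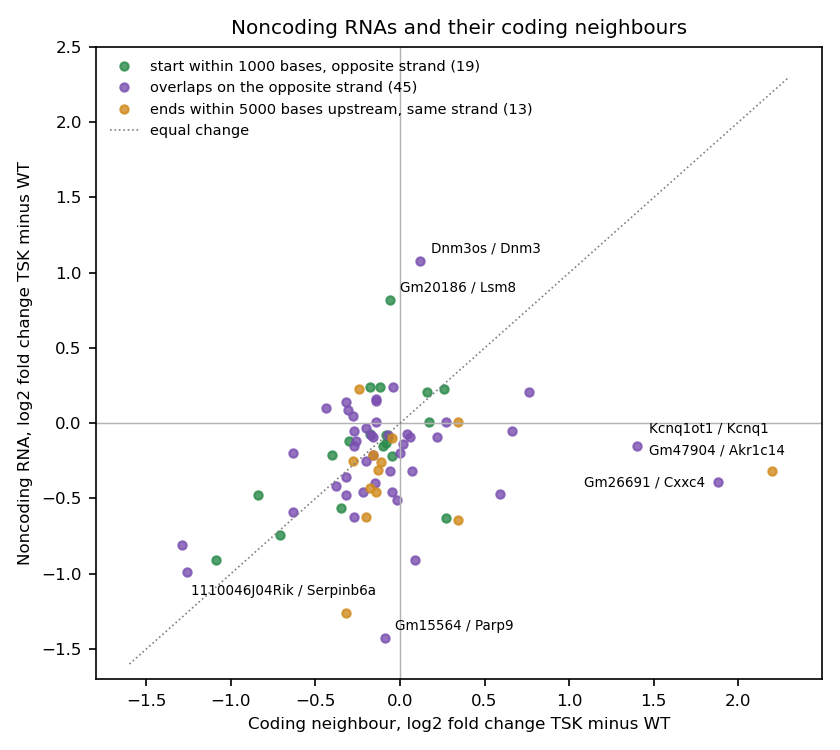
Log2 fold change, TSK minus WT, of the noncoding RNA (vertical) against its coding neighbour (horizontal), by arrangement, with the number of pairs in the legend and the line of equal change dotted. 1110046J04Rik and Serpinb6a lie near the line at the lower left, Dnm3os and Gm20186 lie above neighbours near 0, and 3 labelled pairs lie far to the right with noncoding values just below 0.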

How the data were processed

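Total RNA of dorsal skin from 3 WT and 3 TSK mice was depleted of ribosomal RNA and sequenced as stranded single-end reads of 50 bases. Per the labels, the authors used bcl2fastq 2.19.1.403, STAR (mm10, GRCm38) and Partek 11.0. The authors deposited estimated counts per gene, of which 43.3% to 45.4% of non-zero values were whole (within 0.001), and CPM, that is counts per 1000000 of a library. Estimated counts were planned as raw counts and were rounded before testing. edgeR 4.0.16 (R 4.3.3) fitted TMM-scaled counts of 19971 genes kept by filterByExpr, with Benjamini-Hochberg adjustment over all of them. Means carry the SD, and fold changes the standard error from the F statistic. Alternatives were DESeq2 1.42.0, limma 3.58.1, other scalings, filters, log2(CPM + 1) or log2(CPM + 0.1), selection rules, a replicate block and fits without 1 library. The RNAs and lists were chosen with earlier results of these data known. Named are the 10 most abundant RNAs, all calls, the largest separate changes up to 8 per direction, list members, those at the threshold, and coding neighbours. Coordinates are 1-based from GENCODE M21, and sequences come from RefSeq or GENCODE, aligned with Biopython. Scripts were tested on simulated counts. P-values measure the spread between mice.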

Additional observations from a re-analysis of the deposited data

How the results depend on the processing

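Against 2 RNAs higher and 3 lower in TSK, DESeq2 gave 6 and 5 (5.5% and 1.98% of all genes), and so did edgeR without a low-count filter (2.99% and 0.997%). Library totals alone gave 7 higher, 3.48% of the 201 against 8.44% of all genes. limma-trend on log2(CPM + 1) or log2(CPM + 0.1), which uses the same totals, gave 8, 3.98% against 8.87% and 8.82%. A stricter filter of 1 CPM in 3 libraries, upper quartile scaling and limma-voom each left 1 higher, where 3.1%, 2.41% and 2.17% of all genes were called higher. A mean of at least 10 CPM left 1 lower among 88 RNAs, and RNAs that overlap no other gene had 1 higher and 1 lower among 106. Each of the remaining scalings and rules gave counts within 1.5 times, as did the 176 RNAs with both group means of at least 5 CPM, a rule added after seeing the data (2 higher and 2 lower). With any 1 library left out, 0 to 1 RNAs were higher and 0 to 9 lower, where 0.218% to 3.47% of all genes were higher and 0.0726% to 2.66% lower. The 9 lower RNAs and the 2.66% both came without WT 1. There were 0 calls without WT 2 or without WT 3, when 1.39% and 0.29% of all genes were called, and 10 without WT 1 (6.13%). A replicate block gave 6 higher and 3 lower (3.34% and 0.727% of all genes). The labels do not tie mice with the same number, and their deviations correlated at 0.0112, 0.167 and -0.0938, so the numbers pair nothing. The block result is not evidence of a stronger effect.

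The median log2 fold change of -0.13 became 0.15 with library totals alone, 0.14 with limma-trend at a pseudocount of 0.1 and 0.13 at 1, while the median of all genes moved from -0.03 to 0.25, 0.25 and 0.20. It was -0.25 to -0.08 with 1 library left out. Under these same 3 settings Malat1 was at 0.07, 0.05 and 0.05, Norad (2900097C17Rik) at 0.03, 0.02 and 0.02, Kcnq1ot1 at 0.13, 0.11 and 0.11, Gm4117 at 0.22, 0.23 and 0.22, Lncpint at 0.23, 0.20 and 0.19, Lockd at 0.16, 0.20 and 0.17, and Gm48306 at 0.05, 0.04 and 0.04. Gm47578 was at -0.02 with upper quartile scaling and at -0.03 to 0.05 with 1 library left out. Such fits gave -0.01 (without TSK 3) to 0.26 for Airn, -0.14 to 0.04 (without WT 1) for Gm4117, -0.28 to 0.08 (without TSK 1 or WT 2) for Lncpint and -0.24 to 0.11 (without WT 1) for Lockd, and 0.01 for Gm4117 without TSK 1. None of these RNAs passed the test under any setting tried. The 5 called RNAs and Meg3, Mirg, Gm20186, Dnm3os and 5430431A17Rik kept their direction under all 17 settings.

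With 3 mice a group, no call outlasted the removal of every single library. At 5 CPM a library held 87.8 to 96.1 counts of an RNA. RNAs with shared sequence, and antisense RNAs across abundant exons, have uncertain levels.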
